A study of Mus musculus with 8 samples.

Results

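The comparison was between the mouse embryonic stem cell (ESC) line that stably expressed Sf1, called tc;Sf1ESCs, and the line it was derived from, called tcESCs. Its members were all genes with a mean of more than 10 counts over the 4 libraries of these lines, 15746 of the 46078 gene IDs counted. At that limit, 56 genes had a mean of 10.25 and were kept, and 60 genes had a mean of 10 and were left out. The series held 8 poly-A RNA libraries made by strand-specific paired-end sequencing, 2 for each of 4 kinds of cells. The other 4 libraries were from SCLCs, CFP-positive Sertoli cell-like cells made from the Sf1 line, and from germ cell-like cells of a different line with Prdm1-gfp, and did not enter the comparison.

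Both lines are labelled XY, were of the C57BL/6 strain, and carried tesco-cfp, a reporter in which a testis enhancer of Sox9 drives a cyan fluorescent protein. Both were grown without serum and without feeder cells in 2iLIF, a medium with inhibitors of MEK and GSK3 and the cytokine LIF. The Sf1 line also carried pCDNA3-Sf1, a plasmid from which Sf1 is transcribed constitutively and which gives resistance to G418. The plasmid was introduced by electroporation, and the line was founded from a G418-resistant colony that did not fluoresce. It is labelled as a clone, and the effects of the transgene, of electroporation, of G418 and of the founding cell cannot be told apart here. The tcESC libraries had no empty-plasmid counterpart among the 8 libraries. The libraries are described as biological duplicates, with no word on separate cultures and with 1 clone behind both tc;Sf1ESC libraries, so the p-values measure the spread between these libraries.

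SF1 (NR5A1) is an orphan nuclear receptor that binds DNA as a monomer at an extended single copy of the nuclear receptor element. In the gonadal ridge and the adrenal primordium it is needed for the organs to form, in Sertoli cells it acts with SRY on the Sox9 enhancer, and in steroidogenic cells it turns on the enzymes that make steroid hormones. ESCs normally lack it and use its close relative NR5A2. G418 is an aminoglycoside that blocks protein synthesis in cells without the resistance gene.

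The 4 libraries held 25411033 to 30680191 counts on genes, so that 3 counts corresponded to 0.0978 to 0.118 CPM, counts per 1000000 counts on genes. The share of read pairs that aligned to more than 1 place was 25.4% and 26.1% in tcESCs against 27.5% and 27.4% in tc;Sf1ESCs. The ESC markers fixed for the label check (Pou5f1, Sox2, Nanog, Esrrb, Zfp42 and Dppa5a) summed to 4318 and 4550 CPM in tcESCs against 4040 and 4017 CPM in tc;Sf1ESCs. Both labels held on that count. Markers of fibroblasts summed to 5.23 and 5.08 CPM in tcESCs against 2.58 and 2.24 CPM in tc;Sf1ESCs. The blood marker Tyrobp was at 0 counts in all 4 libraries. Nearly all of the blood marker sum was Cd68, with 690 and 1035 counts in tcESCs against 491 and 531 in tc;Sf1ESCs. Pecam1 and Tek, which ESCs also express, held nearly all of the endothelial sum, while Cdh5 stayed at 1 to 3 counts.

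Nr5a1 itself (ENSMUSG00000026751, chr2:38692656-38714542 on GRCm38) was counted 1 and 0 times in the parental libraries, against 52 and 30 times in those of the Sf1 line. The groups did not overlap, and the level in the Sf1 line was 1.54 ± 0.652 CPM (SD, n = 2). Measured against a floor of 3 counts in each parental library, this was at least 14.3-fold higher (edgeR quasi-likelihood test, adjusted p = 6.17e-09). The transgene is labelled as mouse Sf1, so its reads and those of the gene itself fall on 1 gene model and are counted together, and how much of the transcript the plasmid holds was not given in the sources used here. The gene whose official symbol is Sf1 is a different one, splicing factor 1. It had 12819 and 14761 counts in tcESCs against 12734 and 13288 in tc;Sf1ESCs (log2 fold change -0.01, SE 0.0391, not called). Nr5a2, the relative already present in ESCs, had 4553 and 5417 counts against 4427 and 4527 (log2 fold change -0.08, SE 0.0421). Nr0b1 (DAX1), a corepressor of both receptors, had 2996 and 4000 counts against 2028 and 2089 (log2 fold change -0.68, SE 0.0493).

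**Figure D1:**
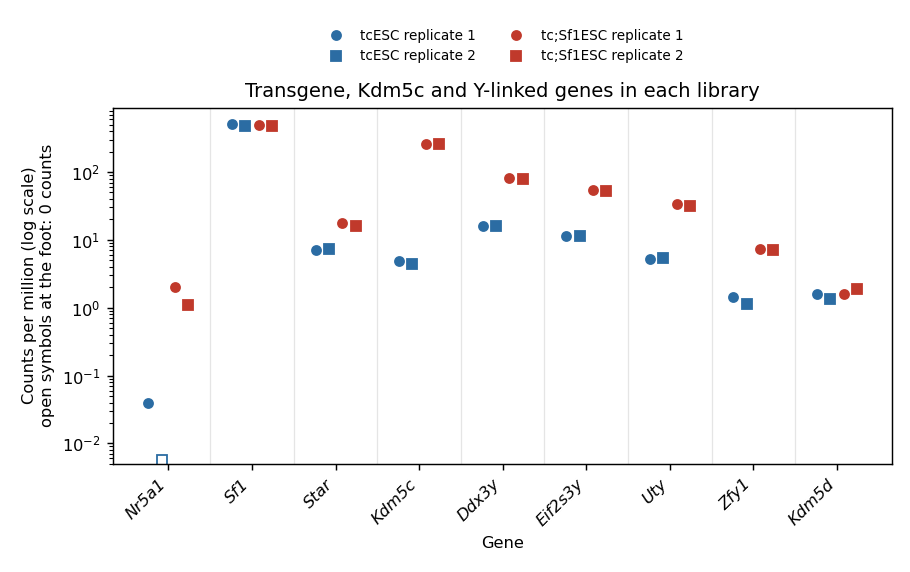
CPM on a log scale for 9 genes, with 1 point for each library of tcESCs (blue) and tc;Sf1ESCs (red). Kdm5c, Star and 4 Y-linked genes were higher in both tc;Sf1ESC libraries than in either tcESC library, Kdm5d and the splicing factor Sf1 overlapped between the lines, and Nr5a1 had 1 and 0 counts in tcESCs.

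Of 30 steroidogenic genes listed as regulated by SF1, 10 reached the count limit. A gene was called where its adjusted p was under 0.05 and its change at least 2-fold, which held for 14% of all genes tested in either direction. Star, which moves cholesterol into mitochondria, was the 1 member called, with 183 and 226 counts in tcESCs against 452 and 446 in tc;Sf1ESCs (log2 fold change 1.21, SE 0.0993). Star lies on chromosome 8, and relative to that chromosome's median its log2 fold change was 0.73 and no longer called. The other 9 members tested were not called, and the list's median log2 fold change was 0.05, or -0.10 relative to the chromosomes, against 0.0068 over all genes tested. Fdxr and Por, which pass electrons to cytochrome P450 enzymes, were at -0.23 and 0.10. Other enzymes of the list were under the count limit. Cyp11a1, which makes pregnenolone, had 8 and 1 counts against 6 and 4, Cyp17a1 had 0 and 1 against 1 and 1, and Hsd3b1 had none in any library.

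Promoters were searched for the letters of the SF1 response element, CAAGGTCA, on both strands from 250 bases before to 50 bases after each RefSeq gene start (build GRCm38.p6). The word was in 1.56% of all 32851 promoters and in 1.38% of the 11031 promoters of genes tested. It was in 10 of 729 promoters of genes called higher (1.37%) and in 7 of 771 of genes called lower (0.908%). The share among genes called higher was thus that of all genes tested. To show what such matches look like, the windows of the 6 called-higher genes whose word lay within 100 bases before the start are given with the word in capitals, read on the gene's strand, so that TGACCTTG is the word on the opposite strand.
Cerk: agacggatgccCAAGGTCAaatcgctcctg
Aldh3b1: tggcctggagcCAAGGTCAggcactaggcc
Myh7b: ctctcctttgcTGACCTTGacaacagcaat
Tesk1: taccttcccgaTGACCTTGaggggaggagt
Chit1: actagaaggtgTGACCTTGtaggaagaagt
Ccdc190: agccaccatgcTGACCTTGttctttcag

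These windows lay at chr15:86186168-86186197 (minus strand) for Cerk, chr19:3929801-3929830 (minus) for Aldh3b1, chr2:155611186-155611215 (plus) for Myh7b, chr4:43442214-43442243 (plus) for Tesk1, chr1:134111161-134111190 (plus) for Chit1 and chr1:169929891-169929918 (plus) for Ccdc190. Cerk, which phosphorylates ceramide, had 86 and 129 counts in tcESCs against 542 and 590 in tc;Sf1ESCs (log2 fold change 2.47, SE 0.111). Aldh3b1, an aldehyde dehydrogenase, had 15 and 28 counts against 101 and 107 (log2 fold change 2.35, SE 0.239). The change of Myh7b, a myosin heavy chain, was smaller, from 1311 and 1501 counts to 2799 and 2938 (log2 fold change 1.10, SE 0.0497). These genes were picked by the word and their call, after their values were seen, and the match is a description of the letters only.

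Over all genes, 2205 were called (14% of 15746), 1123 of them higher in tc;Sf1ESCs (7.13%) and 1082 lower (6.87%). Of the genes called, 1884 were protein-coding. Genes with a small adjusted p and a change under 2-fold count as not called. In 2203 of the genes called, the 2 libraries of one line lay on one side of both libraries of the other, which was true of 78.0% of all genes tested. The median log2 fold change was 0.0068, but it was not the same on every chromosome. Genes of chromosomes 3 and 8 were shifted up and genes of chromosomes 6 and 16 were shifted down.

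The shift was largest on chromosome 8. The median log2 fold change of its 809 genes was 0.48, a factor of 1.39, and 83.8% of them were above 0. Each of the 4 pairings of a tc;Sf1ESC library with a tcESC library gave a median between 0.46 and 0.49. On chromosome 16 the median of 490 genes was -0.45, a factor of 0.731, with 82.7% of genes below 0 and pairings between -0.47 and -0.45. Chromosome 6 had a median of -0.32 over 744 genes, with 73.7% below 0 and pairings between -0.33 and -0.31. Chromosome 3 had the smallest of the 4 shifts, 0.21 over 785 genes, with 68.5% above 0 and pairings between 0.19 and 0.21. The medians of the other 15 autosomes lay between -0.03 and 0.05, and that of X was -0.03. With 2 libraries a line, an exact permutation test of a median cannot go below p = 0.333 (two-sided), so the medians are given with the spread of the pairings and no test.

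**Figure D2:**
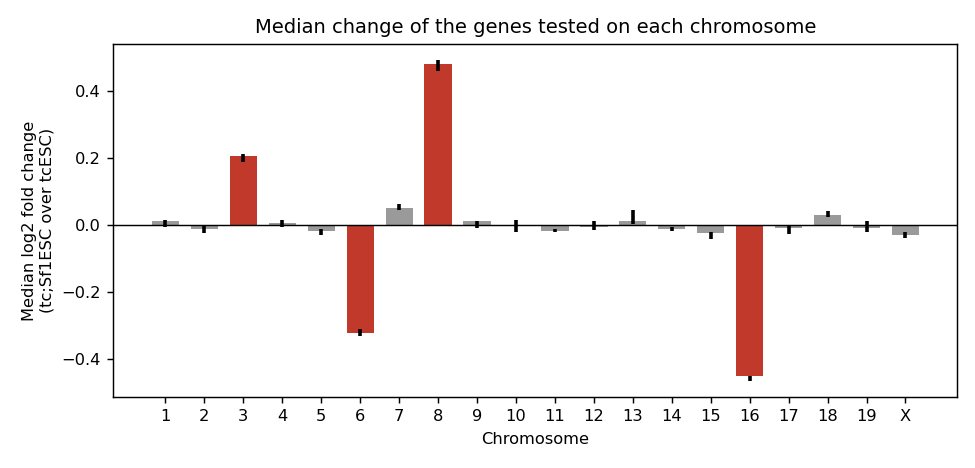
Median log2 fold change (tc;Sf1ESCs over tcESCs) of the genes tested on each autosome and X as bars, with a black line from the lowest to the highest of the 4 pairings of libraries. Chromosomes 3, 6, 8 and 16 (red) lie at 0.21, -0.32, 0.48 and -0.45, and the grey bars between -0.03 and 0.05.

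Windows of 10 Mb with at least 20 genes showed the same on a finer scale. The 12 windows of chromosome 8 had medians from 0.33 to 0.53 and the 7 windows of chromosome 16 from -0.57 to -0.28. The 13 windows of chromosome 3 ranged from 0.05 to 0.33. On chromosome 6 the 13 windows ranged from -0.40 to -0.0031, so its range reached close to 0. The 172 windows of the other autosomes ranged from -0.23 to 0.23. By summed counts, chromosome 8 held 4.36% and 4.41% of the counts on genes in tcESCs and 6.08% in both tc;Sf1ESC libraries. Chromosome 16 held 4.07% and 4.08% in tcESCs against 2.93% and 2.92% in tc;Sf1ESCs.

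**Figure D3:**
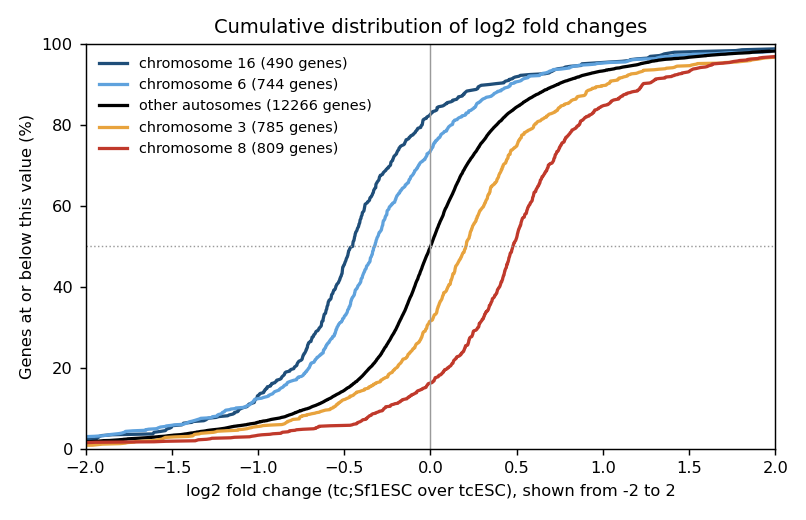
Share of genes at or below each log2 fold change, as 1 line for each of chromosomes 3, 6, 8 and 16 and 1 for the other 15 autosomes, shown from -2 to 2. The lines of chromosomes 6 and 16 lie to the left and those of 3 and 8 to the right of the line of the other autosomes over the middle of the range, with medians of -0.32, -0.45, 0.21 and 0.48.

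To keep single genes apart from these shifts, each gene was also tested relative to the median of its chromosome. This left 2090 genes called (13.3%), 1064 higher (6.76%) and 1026 lower (6.52%), of which 2010 were called both ways. Of the 195 genes called only without the offset, 165 lay on the 4 shifted chromosomes, as did 64 of the 80 called only with it. On chromosome 8 the calls went from 123 higher and 27 lower to 56 and 45. Those of chromosome 16 went from 23 higher and 64 lower to 38 and 27. Chromosome 6 went from 36 and 90 to 53 and 54, and chromosome 3 from 80 and 43 to 55 and 57. The centring itself moves the balance between the directions, so these splits are a description only.

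The largest changes of single genes were taken from the 797 protein-coding genes called with and without the offset that had at least 5 CPM in the higher line and no overlap between the lines. The largest increase among them was that of Kdm5c, the X-linked demethylase of histone H3 lysine 4 (chrX:152233020-152274535). It had 124 and 136 counts in tcESCs against 6771 and 7242 in tc;Sf1ESCs, or 4.66 ± 0.316 and 261 ± 0.362 CPM (SD, n = 2 each). Its log2 fold change was 5.83 (SE 0.0662, edgeR adjusted p = 2.25e-34). Genes to either side of it, chosen for their position, were not called. Iqsec2 was at 0.85 (SE 0.118), Kantr at 0.60 (SE 0.179), Tspyl2 at 0.32 (SE 0.0535) and Smc1a at -0.12 (SE 0.0416) on the log2 scale. Xist had 117 and 168 counts against 120 and 143 (log2 fold change -0.04, SE 0.146, not called).

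Y-linked genes differed as well, and 4 of the 5 listed members tested were called higher. Ddx3y, an RNA helicase, had 411 and 493 counts in tcESCs against 2089 and 2164 in tc;Sf1ESCs (log2 fold change 2.31, SE 0.0608). Eif2s3y, a translation initiation factor subunit, had 285 and 347 against 1393 and 1435, and the demethylase homologue Uty 132 and 163 against 863 and 873. Zfy1, a zinc finger factor, rose from 37 and 35 counts to 189 and 197. Kdm5d, the Y homologue of Kdm5c, had 41 and 41 counts against 41 and 52 (log2 fold change 0.25, SE 0.254), and its libraries overlapped. Over all 7 Y-linked genes tested the median log2 fold change was 2.24, and 6 were called. The 5 tested were thus present in both tcESC libraries, and except for Kdm5d they were at a lower level there than in the line made from it. Whether every cell of the tcESC libraries carried the Y chromosome, and what the culture of that line was after the Sf1 line was made from it, was not given, and their part in the Y-linked and Kdm5c values was not tested.

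Of the other largest increases among protein-coding genes, some were near silent in the parental line. Khdc1c and Khdc1a, neighbours of an oocyte-expressed family on chromosome 1, had 6 and 6 against 194 and 246 counts and 2 and 14 against 156 and 191. Pear1, a platelet receptor, had 4 and 4 against 187 and 149, and Trim50, a ubiquitin ligase, had 1 and 11 against 193 and 221. Txlnb rose from 35 and 44 counts to 860 and 942, and Cyp2b23, a cytochrome P450, from 30 and 50 to 768 and 787. Bst1, Kcna2, Dcdc2a and Nxf3 were also among the 12 largest increases, with log2 fold changes between 4.29 and 4.79. Reads that align to more than 1 near-identical copy of Khdc1 members are not counted, so these values are uncertain.

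By the same rule the largest decrease was that of Peg10, an imprinted gene derived from a retrotransposon, described with the imprinted genes. Krt18, a simple epithelial keratin, came next. Fgf17, a fibroblast growth factor, fell from 213 and 301 to 10 and 14 counts, and Wdr86 from 386 and 457 to 20 and 18. Inhbb, the beta B subunit of activin and inhibin, fell from 342 and 475 to 21 and 31. Also among the 12 largest decreases were Crispld2, Taf7l, Sgce, Mael, Oaf and Lama4, with log2 fold changes between -4.34 and -3.52.

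On the shifted chromosomes, single genes went with the shift and against it. On chromosome 8, Myom2 rose from 8 and 7 counts to 189 and 202 (log2 fold change 4.76, and 4.28 relative to the chromosome), and Sgo2b from 8 and 16 to 171 and 205. Against that chromosome's shift, Crispld2 fell from 227 and 293 counts to 15 and 21, and Arhgef10, a guanine nucleotide exchange factor, from 134 and 176 to 25 and 25. On chromosome 16, Cd200, a membrane glycoprotein of the immunoglobulin family, rose from 19 and 36 to 262 and 269 (log2 fold change 3.34, and 3.79 relative to the chromosome). Fstl1, a secreted glycoprotein, fell there from 6131 and 7663 to 969 and 1105. Chromosome 6 held Ccdc136, which rose from 441 and 450 to 1636 and 1690, and Cpne9, which rose from 33 and 28 to 151 and 132. On chromosome 3, the tight junction protein gene Cgn fell from 301 and 326 to 53 and 54, and Ank2, an ankyrin, from 515 and 522 to 103 and 151.

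Most genes of the pluripotency network were not called, as was true of all genes tested, of which 14% were called. None of the 15 core and shared pluripotency factors tested was called higher by edgeR or DESeq2, 3 were above 0 at an unadjusted p under 0.05, and 2 were called lower (13.3%, against 6.87% of all genes, with a median log2 fold change -0.25). Lin28a, an RNA-binding inhibitor of let-7 maturation, fell from 4316 and 4997 counts to 1870 and 1912 (log2 fold change -1.23, SE 0.0465). Dppa2 had 1349 and 1550 against 597 and 672 (log2 fold change -1.12), and on chromosome 16 its value relative to the chromosome, -0.67, was not called. Pou5f1, which encodes OCT4, had 14013 and 18689 counts against 12879 and 13983 (log2 fold change -0.20, SE 0.0415). Sox2, on chromosome 3, had 12822 and 16170 against 15971 and 16669, with a log2 fold change of 0.25 that was 0.04 relative to the chromosome. Nanog, on chromosome 6, had 23884 and 30029 against 18185 and 19075, with -0.45 and, relative to the chromosome, -0.13.

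Of 19 naive pluripotency factors tested, 2 were called higher (10.5%, against 7.13% of all genes), 17 were not called, and the median was -0.07. Tcl1, a cofactor of AKT kinases, rose from 800 and 1017 counts to 2744 and 2915 (log2 fold change 1.72, SE 0.0523), and Gbx2, a homeobox gene downstream of LIF, from 240 and 283 to 576 and 585 (1.23, SE 0.0882). Klf4 had 12500 and 14795 counts against 7795 and 8166, a log2 fold change of -0.70 (SE 0.0389) that was under the 2-fold limit. Klf2, on chromosome 8, was at 0.38, and at -0.09 relative to the chromosome. Among 15 formative and primed epiblast genes tested, Sall2 and Grhl2 were called higher and Sox3 and Pou3f1 lower (13.3% each way). Sox3 fell from 173 and 190 counts to 43 and 44 (log2 fold change -1.98, SE 0.173). Of 14 genes of the 2-cell stage tested, none was called higher by edgeR or DESeq2 (1 at an unadjusted p under 0.05) and 1, Usp17la, lower, with 2 lower without tcESC replicate 1 or without tc;Sf1ESC replicate 1. With a library left out, its line has 1 library, which is assumed to vary like those of the other line.

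Early primordial germ cell (PGC) genes had 4 of 13 members called higher (30.8%, against 7.13% of all genes), with a median log2 fold change of 0.50. None was called lower by edgeR or DESeq2, and 3 were below 0 at an unadjusted p under 0.05. Prdm1, the repressor that specifies PGCs, rose from 201 and 250 counts to 590 and 660 (log2 fold change 1.55, SE 0.0897). Nanos3, which keeps PGCs alive, rose from 49 and 61 to 236 and 251 (2.22, SE 0.151, and 1.74 relative to chromosome 8). Ifitm1 and Tcl1 were the other 2.

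Targets of Wnt and beta-catenin signalling were one of the lists with the largest share called. GSK3 inhibition, as in the 2iLIF of both lines, keeps beta-catenin active in general, and its activity in these lines was not measured. Of 22 targets tested, 10 were called higher (45.5%, against 7.13% of all genes), 2 lower (9.09%, against 6.87%) and 10 not, with a median log2 fold change of 0.67. Lef1, a transcription factor that binds beta-catenin, had 41 and 56 counts in tcESCs against 912 and 934 in tc;Sf1ESCs (log2 fold change 4.32, SE 0.113). Notum, a deacylase that inactivates Wnt ligands, had 789 and 866 against 2752 and 2903 (1.85, SE 0.0551). Sp5, a transcriptional repressor, had 517 and 622 against 1947 and 1972 (1.86, SE 0.0598). In each of them the lowest tc;Sf1ESC library was well above the highest tcESC library. Axin2, the negative feedback regulator of the pathway, rose from 1871 and 2142 to 3897 and 4168 (1.08, SE 0.0464). Tnfrsf19, Apcdd1, T, Rnf43, Dkk1 and Cdx2 were the other members called higher. Tcf7, a relative of Lef1, had 1781 and 1981 against 2086 and 2303 (0.29, SE 0.0513). Ascl2, which fell from 149 and 215 counts to 56 and 51, and Sfrp5 were the 2 called lower. Among 19 Wnt ligands and frizzled receptors, 1 was called higher (5.26%, against 7.13% of all genes) and 3 lower (15.8%, against 6.87%). The 1 higher became 0 without tcESC replicate 1 or without tc;Sf1ESC replicate 2, and 2 without tcESC replicate 2.

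The feedback and immediate early genes of ERK signalling, which MEK inhibition holds down in 2iLIF, had 6 of 20 members called lower (30%, against 6.87% of all genes). None was called higher by edgeR or DESeq2, and 5 were above 0 at an unadjusted p under 0.05. Their median log2 fold change was -0.17, and -0.42 relative to the chromosomes. Spry4, an inhibitor of receptor tyrosine kinase signalling, fell from 912 and 1080 counts to 368 and 352 (-1.39, SE 0.0757). Etv4, an ETS factor downstream of FGF, fell from 1716 and 2246 to 881 and 893 (-1.08, SE 0.0571), and Myc from 540 and 661 to 254 and 261 (-1.14, SE 0.0876). Fos, Fosl1 and Ier3 were also called. Of the members not called, Spry2 was at 0.69 (SE 0.0456), Spry1 at 0.35, Jun at 0.93 and Etv5 at -0.0036. Ier3 stood at the limit, and without tcESC replicate 2 its log2 fold change of -0.90 was not called, nor was that of -0.94 without tc;Sf1ESC replicate 1. Fos, with 114 and 120 counts against 63 and 45, was at -0.94 without tcESC replicate 1 and at -0.78 without tc;Sf1ESC replicate 2, and then not called.

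**Figure D4:**
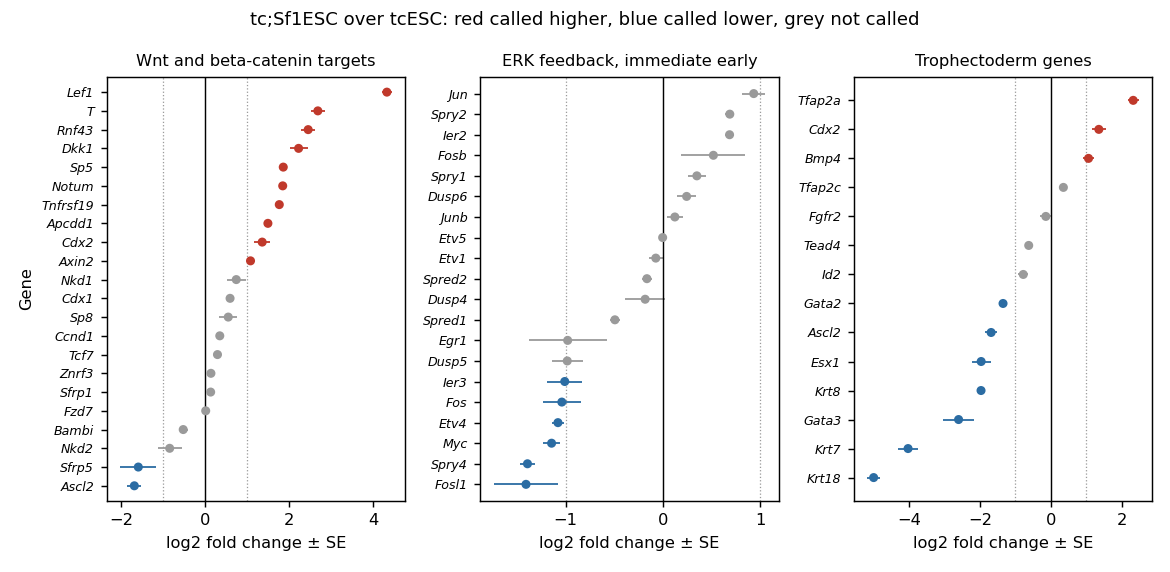
log2 fold change (tc;Sf1ESCs over tcESCs) with its SE for every tested member of 3 lists, red where called higher, blue where called lower and grey where not called, with dotted lines at a 2-fold change. Lef1 lies at 4.32 at the top of the Wnt targets, Spry4 at -1.39 among the ERK genes, and Krt18 at -5.00 at the foot of the trophectoderm genes.

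Genes responding to BMP and activin went both ways, with 6 of 20 called higher (30%, against 7.13% of all genes) and 4 lower (20%, against 6.87%). Lefty2 and Lefty1, secreted antagonists of Nodal, rose from 828 and 1099 counts to 6517 and 7063 (log2 fold change 2.90, SE 0.0501) and from 144 and 196 to 852 and 925 (2.46, SE 0.0892). Bmp7 rose from 309 and 354 to 891 and 913. Nog, a BMP antagonist, had 17 and 24 counts against 4 and 4. Of the Id genes on the list, Id3 was called lower at -1.06 and Id4 higher at 1.20. Id1 and Id2 were not called, at -0.58 and -0.78. The list's median log2 fold change was -0.39. Among Fgf ligands and receptors, 3 of 13 were called higher (23.1%, against 7.13% of all genes) and 2 lower (15.4%, against 6.87%). Notch ligands, receptors and targets had 1 of 12 called each way, 8.33% and close to the share of all genes (2 higher without tc;Sf1ESC replicate 1 and 0 lower without tc;Sf1ESC replicate 2). Jag1, a Notch ligand, rose from 969 and 1082 counts to 2518 and 2661.

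Lineage genes moved in both directions within each list. In bulk libraries, fewer cells of a type and less RNA per cell cannot be told apart. Trophectoderm genes had 7 of 14 members called lower (50%, against 6.87% of all genes) and 3 higher (21.4%, against 7.13%), with a median log2 fold change of -1.06. Krt18 had 569 and 935 counts in tcESCs against 23 and 21 in tc;Sf1ESCs (log2 fold change -5.00, SE 0.175), and its partner Krt8 had 654 and 1015 against 192 and 210 (-1.97, SE 0.103). Krt7 had 105 and 158 against 7 and 8, and the transcription factor Gata3 28 and 44 against 7 and 4. In the other direction, Cdx2, the factor that specifies trophectoderm, had 57 and 50 counts against 137 and 124 (1.36, SE 0.188), and Tfap2a 43 and 50 against 216 and 228 (2.33, SE 0.16). The defining markers Elf5 and Hand1 stayed at 0 to 4 counts in every library. The 5 trophectoderm markers summed to 7.59 and 8.41 CPM in tcESCs against 5.90 and 4.99 CPM in tc;Sf1ESCs, and their part in the change of the keratins was not tested. Over the keratin family, 4 of 8 were called lower (50%, against 6.87% of all genes) and 2 higher (25%, against 7.13%). The 2 were Krt42 and Krt17.

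Primitive and visceral endoderm genes had 5 of 20 members called higher (25%, against 7.13% of all genes) and 4 lower (20%, against 6.87%). Their median was 0.13, and -0.12 relative to the chromosomes. Gata4 rose from 47 and 72 counts to 171 and 184 (log2 fold change 1.65, SE 0.164) and the nuclear receptor gene Hnf4a from 86 and 82 to 233 and 265 (1.64, SE 0.142). Dab2, an endocytic adaptor, fell from 236 and 305 to 42 and 58 (-2.35, SE 0.156), Sox7 from 44 and 50 to 4 and 8, and the laminin gene Lamb1 from 2559 and 2946 to 828 and 861. The 6 primitive endoderm markers summed to 17.0 and 18.3 CPM in tcESCs against 13.5 and 15.3 CPM in tc;Sf1ESCs.

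Primitive streak and mesendoderm genes had 4 of 12 members called higher (33.3%, against 7.13% of all genes) and 2 lower (16.7%, against 6.87%). T (Brachyury) rose from 37 and 47 counts to 227 and 286 (log2 fold change 2.68, SE 0.164). Eomes, a T-box factor, fell from 785 and 904 to 231 and 223 (-1.82, SE 0.0859), and Kdr from 125 and 154 to 54 and 46. Lefty2, Lefty1 and T were among those called higher, of which T is also among the Wnt targets and the Lefty genes among those of activin.

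Neural lineage genes had 2 of 13 called each way (15.4%, against 7.13% of all genes higher and 6.87% lower), with 1 higher without tcESC replicate 2. Nes, the intermediate filament nestin, rose from 432 and 501 counts to 1589 and 1731 (log2 fold change 1.91, SE 0.0635). Olig2, an oligodendrocyte and motor neuron factor on chromosome 16, had 2307 and 2844 counts in tcESCs, 91.7 ± 1.35 CPM (SD, n = 2), and 245 and 247 in tc;Sf1ESCs (-3.31, SE 0.0664). Gap43, of the growth cone, had 35 and 53 counts against 1 and 0, at least 13.9-fold lower. Hox genes had 4 of 14 called higher (28.6%, against 7.13% of all genes), all at low counts, and 0 lower by edgeR, by DESeq2 or at an unadjusted p under 0.05, with Hoxd9 at 16 and 25 against 50 and 46.

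Of 22 genital ridge and Sertoli genes tested, 5 were called each way (22.7%, against 7.13% of all genes higher and 6.87% lower). Nr5a1, the introduced gene, is 1 of the 5 higher, and without it 4 of 21 were (19.05%). Beside Nr5a1 and Gata4, Kitl, the ligand of the receptor KIT, rose from 87 and 111 counts to 285 and 297 (log2 fold change 1.63, SE 0.127). Inhbb fell as given above, and Dmrt1, which maintains male fate in the testis, fell from 332 and 450 to 133 and 127 (-1.51, SE 0.116). Sox9 had 2 and 8 counts against 7 and 0, and Wt1 15 and 19 against 9 and 13. The 4 Sertoli markers summed to 1.46 and 1.69 CPM in tcESCs against 1.70 and 2.20 CPM in tc;Sf1ESCs.

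Genes of the germline that DNA methylation silences in most other cells formed the list with the largest share called lower of the 52 examined. Of 34 tested, 20 were called lower (58.8%, against 6.87% of all genes) and 7 higher (20.6%, against 7.13%), with a median log2 fold change of -1.46. Dazl, an RNA-binding protein of germ cells, had 4357 and 5876 counts in tcESCs against 1010 and 1093 in tc;Sf1ESCs (log2 fold change -2.20, SE 0.0532). Smc1b, a meiotic cohesin, had 699 and 794 against 67 and 66 (-3.41, SE 0.113). Taf7l, a TFIID subunit of spermatocytes, had 195 and 278 against 11 and 13 (-4.21, SE 0.22). Of members known from the piRNA pathway, Mael had 118 and 228 counts against 10 and 13, Piwil2 913 and 1014 against 255 and 259, Tdrd12 3133 and 3795 against 1350 and 1456 and Ddx4 365 and 429 against 73 and 83. Asz1 and Mov10l1 were called lower as well, at -2.05 and -1.83. Tdrd9 was called higher, with 9 and 17 counts against 34 and 36, and Piwil1 and Tdrd1 were not called, at -0.09 and -0.42. Of members known from meiosis, Sycp1, Sycp2, Sycp3 and Stra8 were called lower, from 148 counts or fewer in tcESCs, while Majin was called higher, with 17 and 20 counts against 65 and 52, and Hormad1 was not called, at -0.56.

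The members called higher were not of 1 kind. Fkbp6, a co-chaperone of the piRNA pathway, rose from 311 and 453 counts to 1788 and 1838 (log2 fold change 2.33, SE 0.07). Rhox5, an X-linked homeobox gene, rose from 697 and 871 to 2367 and 2721 (1.77, SE 0.0564), while its neighbours Rhox6 and Rhox9 were called lower, at -2.69 and -1.87. Xlr5a had 4 and 3 counts against 119 and 118, and Xlr 11 and 13 against 47 and 41. Xlr and Rhox families include near-identical copies. Reads that align to more than 1 copy are not counted, so the values of single members are uncertain.

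Enzymes that add or remove DNA methylation had 4 of 15 members called lower (26.7%, against 6.87% of all genes). None was called higher by edgeR or DESeq2 (1 without tcESC replicate 2), and 2 were above 0 at an unadjusted p under 0.05. Dnmt3l, the cofactor of the de novo methyltransferases, fell from 6290 and 7917 counts to 2117 and 2268 (log2 fold change -1.62, SE 0.0439). Tet2, a 5-methylcytosine oxidase, fell from 8679 and 8833 to 2380 and 2525 (-1.77, SE 0.0553, on chromosome 3, where the shift is upward). Uhrf2 fell from 1467 and 1809 to 719 and 738. The fourth, Gadd45a on chromosome 6, was not called relative to that chromosome (-0.71), nor in the fits without tcESC replicate 1 or without tc;Sf1ESC replicate 1, where it was -0.98 and -0.91. Dnmt1, the maintenance enzyme, had 15224 and 17325 counts against 14320 and 15130 (-0.07, SE 0.0393), Dnmt3b 4515 and 5178 against 4363 and 4738 (-0.02, SE 0.0429), and Tet1 a log2 fold change of -0.38.

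**Figure D5:**
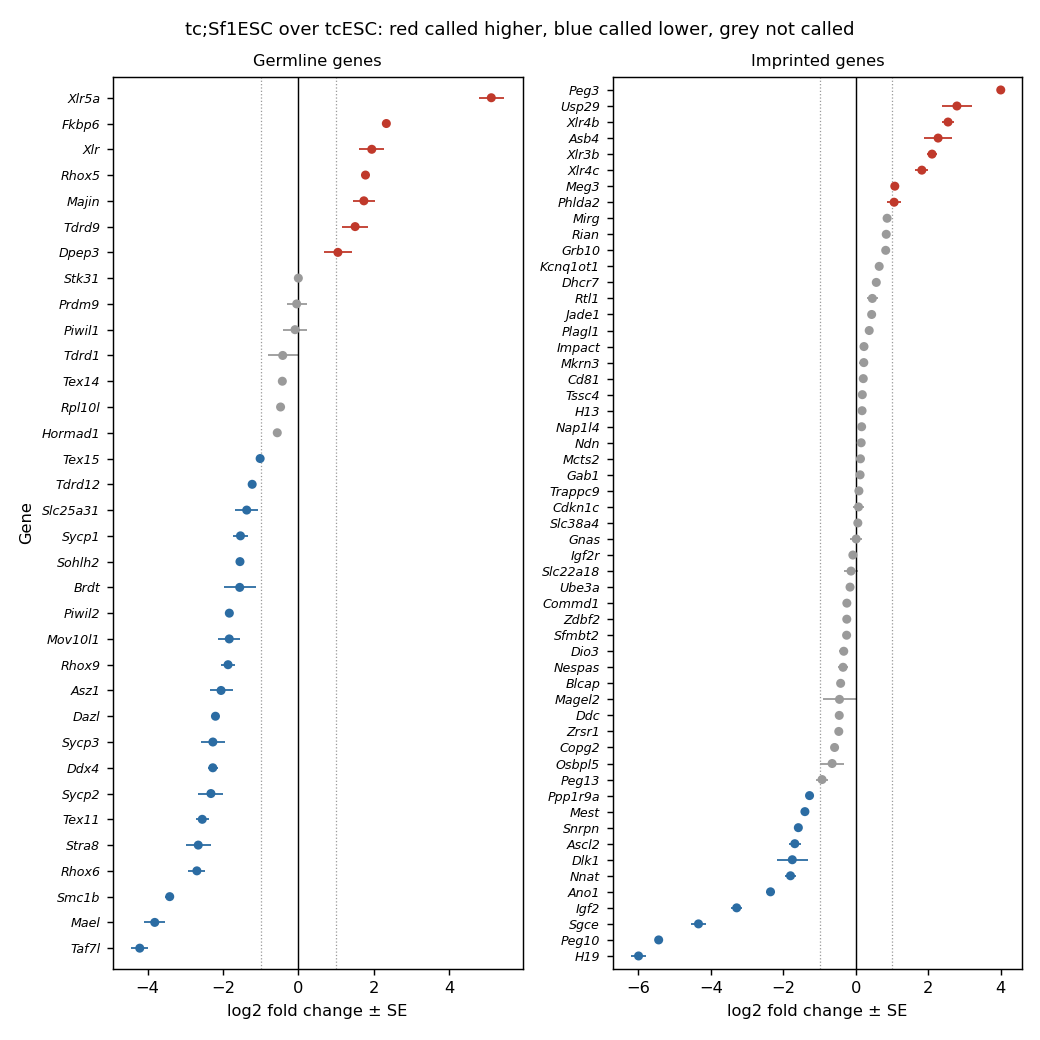
log2 fold change (tc;Sf1ESCs over tcESCs) with its SE for every tested member of the germline list (left) and of the imprinted list (right), red where called higher, blue where called lower and grey where not called. Of the germline genes 20 lie in blue and 7 in red, and of the imprinted genes 11 in blue, down to H19 at -6.00, and 8 in red, with Peg3 at the top.

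Imprinted genes, expressed from 1 parental allele, had 11 of 55 members called lower (20%, against 6.87% of all genes) and 8 higher (14.5%, against 7.13%), with a median of 0.06. Xlr3b, Xlr4b and Xlr4c were among the 8 higher, and their values are uncertain, as for the Xlr genes above. The 11 lower spanned several clusters. H19, a maternally expressed noncoding RNA on chromosome 7 (chr7:142575529-142578143), had 597 and 979 counts in tcESCs against 14 and 9 in tc;Sf1ESCs (log2 fold change -6.00, SE 0.199). Igf2, the paternally expressed growth factor beside it, had 332 and 455 against 40 and 36 (-3.29, SE 0.151). Both genes of this pair, which are expressed from opposite alleles, were lower.

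On chromosome 6, Peg10 (chr6:4747306-4760517) and Sgce (chr6:4674350-4747207), which start from adjacent promoters on opposite strands and are both paternally expressed, were lower together. Peg10 had 18173 and 21817 counts in tcESCs against 396 and 478 in tc;Sf1ESCs, 713 ± 2.86 and 16.3 ± 1.41 CPM (SD, n = 2 each), with a log2 fold change of -5.44 (SE 0.0551). Sgce had 210 and 310 counts against 12 and 12 (-4.34, SE 0.218). Farther along the same cluster, Ppp1r9a had 720 and 753 against 259 and 320 (-1.28, and -0.95 and not called relative to the chromosome), while Asb4 had 5 and 13 against 49 and 34 (2.27, SE 0.386). These 4 genes of the cluster thus did not share a direction. Casd1, just before Sgce, was at -0.51 (SE 0.087). Also lower were Mest, from 3904 and 4746 to 1546 and 1552, Snrpn, from 1223 and 1490 to 419 and 438, and Nnat, from 180 and 218 to 60 and 48.

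Peg3, a paternally expressed zinc finger gene (chr7:6703892-6730431), moved the other way, from 106 and 113 counts to 1597 and 1735 (log2 fold change 3.95 relative to the chromosome). Usp29, which starts beside it on the opposite strand, rose with it, from 4 and 8 to 44 and 36 (2.79, SE 0.408). Meg3, a maternally expressed noncoding RNA of chromosome 12, had 4469 and 4804 counts against 9035 and 9604 (1.08, SE 0.046), and without tcESC replicate 2 its value of 0.99 was under the limit. Rian and Mirg of the same cluster were at 0.84 (SE 0.0389) and 0.86 (SE 0.0661), under the limit. Dlk1, a paternally expressed gene of that cluster, was called lower, with 23 and 31 counts against 9 and 6 (-1.75, SE 0.421). Dio3 and Rtl1, also of that cluster, were not called, at -0.33 and 0.46 (SE 0.146).

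Among adhesion and matrix genes, integrins and laminins were called in both directions. Of 23 integrins tested, 8 were called lower (34.8%, against 6.87% of all genes) and 4 higher (17.4%, against 7.13%), with a median log2 fold change of -0.60. Itga5, the fibronectin receptor's alpha chain, had 1683 and 1980 counts in tcESCs against 157 and 167 in tc;Sf1ESCs (log2 fold change -3.42, SE 0.0766), and Itga9 had 543 and 686 against 44 and 61 (-3.47, SE 0.127). The laminin receptor chains Itga6 and Itgb4 had 6992 and 8138 against 3114 and 3220 and 1228 and 1386 against 561 and 579. Itgb1, the beta chain shared by many integrins, on chromosome 8, was called higher at 1.03, but was at 0.55 and not called relative to that chromosome. Among 25 basement membrane genes, 8 were lower (32%, against 6.87% of all genes) and 3 higher (12%, against 7.13%), of which 2 were higher relative to the chromosomes. Lamb1 fell as given above, while Lamb2 rose from 1633 and 1983 to 3947 and 4107 (1.23, SE 0.0459).

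Tight junction and epithelial genes had 5 of 28 called each way (17.9%, against 7.13% of all genes higher and 6.87% lower). Epcam, an epithelial adhesion molecule, rose from 1688 and 2008 counts to 4616 and 4877 (log2 fold change 1.44, SE 0.0452). Pard3, a polarity scaffold, rose from 1713 and 2170 to 6548 and 7172 (1.90, and 1.42 relative to chromosome 8), and Crb2, of the Crumbs complex, from 28 and 28 to 211 and 253. The keratins and Cgn were among the 5 lower. Cdh1, E-cadherin, had 22803 and 26493 counts against 24176 and 25752 (0.09, SE 0.0373, and -0.39 relative to chromosome 8, both under the 2-fold limit), and Cdh3, P-cadherin, rose from 257 and 304 to 1041 and 1096 (2.01, and 1.53 relative to chromosome 8). Among genes of the switch from epithelium to mesenchyme, 2 of 17 were higher (11.8%, against 7.13% of all genes) and 3 lower (17.6%, against 6.87%). The median of that list was -0.11, while Vim, vimentin, rose from 3511 and 4483 to 13359 and 14440 (1.88, SE 0.0416). Cadherins had 2 of 10 called each way (20%). Protocadherins had 7 of 25 called higher (28%, against 7.13% of all genes) and a median of 0.82, with 0 lower by edgeR, by DESeq2 or at an unadjusted p under 0.05. They were led by Pcdhgb2, with 20 and 32 against 76 and 89, and members of the gamma cluster share 3′ exons, so their counts are uncertain.

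Collagens had 4 of 20 called higher (20%, against 7.13% of all genes) and 2 lower (10%, against 6.87%). Col2a1, the collagen of cartilage, rose from 38 and 43 counts to 591 and 639 (log2 fold change 4.02 relative to the chromosome). Serpins had 6 of 19 higher (31.6%, against 7.13% of all genes) and 0 lower (edgeR and DESeq2, with 5 below 0 at an unadjusted p under 0.05), and Serpinh1, the collagen chaperone, rose from 1143 and 1494 to 4201 and 4357 (1.78). Semaphorins, plexins, ephrins and Eph receptors had 6 of 55 higher (10.9%, against 7.13% of all genes) and 4 lower (7.27%, against 6.87%).

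Genes of ion channels, carriers and neurotransmitter receptors were called in both directions. Of 44 potassium channel genes, 10 were called each way (22.7%, against 7.13% of all genes higher and 6.87% lower). Kcna2 rose from 3 and 8 counts to 136 and 159, and Kcnh3 fell from 950 and 1159 to 415 and 389. Of 50 sodium, calcium and chloride channel genes, 7 were higher (14%, against 7.13% of all genes) and 8 lower (16%, against 6.87%). Trpm1, a cation channel of melanocytes and retina, rose from 889 and 1091 counts to 6553 and 6919 (log2 fold change 2.84, SE 0.0478), and Ano1, a chloride channel, fell from 398 and 476 to 83 and 79 (-2.35, SE 0.122). Scn4a had 22 and 24 counts in tcESCs and none in tc;Sf1ESCs, at least 7.35-fold lower. Among 36 neurotransmitter receptor genes, 10 were lower (27.8%, against 6.87% of all genes) and 5 higher (13.9%, against 7.13%), with the nicotinic receptor gene Chrna4 falling from 633 and 724 to 115 and 98 (-2.59, SE 0.108). The 265 solute carriers had 27 called higher (10.2%) and 24 lower (9.06%), not far from the shares of all genes. Slc13a5, a citrate carrier, fell from 376 and 429 counts to 57 and 58. Slc35c1, the GDP-fucose carrier of the Golgi, rose from 425 and 577 to 1364 and 1401.

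Lists for stress and for the metabolism of foreign compounds were examined because the Sf1 line had been through G418 selection. Amino acid starvation and unfolded protein genes had 1 of 36 members called each way (2.78%, against 7.13% of all genes higher and 6.87% lower). Of the p53 targets, 2 of 26 were called higher (7.69%, near the share of all genes) and 1 lower (3.85%). Cdkn1a, the p53-induced cyclin kinase inhibitor, had 7161 and 8888 counts against 9485 and 10315 (log2 fold change 0.38, SE 0.0393), and Mdm2 a log2 fold change of -0.17. Gdf15, a stress-induced cytokine, rose from 169 and 206 to 546 and 497 (1.55, and 1.08 relative to chromosome 8). Heat shock proteins and co-chaperones had 1 of 76 higher and 5 lower (1.32% and 6.58%), with Bag2 falling from 100 and 139 to 23 and 22. Glutathione transferases and aldehyde dehydrogenases had 10 of 32 called higher (31.2%, against 7.13% of all genes) and 1 lower (2 without tc;Sf1ESC replicate 1). Gstm1 rose from 979 and 1173 counts to 2890 and 3075 (1.55, SE 0.0503) and Gstm3 from 48 and 79 to 447 and 475 (2.94, SE 0.131). The Gstm genes lie together on chromosome 3 and are near-identical, and Gstm2 and Gstm5 were not called relative to the chromosome. Gstm5 was also not called without tcESC replicate 2 (0.90) or without tc;Sf1ESC replicate 1 (0.97). Gsto1 fell from 4466 and 5490 to 1558 and 1729.

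Of 9 genes of the aryl hydrocarbon receptor battery, 3 were called higher (33.3%, against 7.13% of all genes). Cyp1a1 rose from 845 and 1054 counts to 2174 and 2465 (log2 fold change 1.37, SE 0.0545), Cyp1b1 from 101 and 148 to 412 and 464 (1.89, SE 0.114), and Ahrr, the repressor of the receptor, from 139 and 190 to 509 and 553 (1.77, SE 0.1). The other 6 were not called, and the median was 0.07, or -0.04 relative to the chromosomes.

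Lists for cell division, translation and energy metabolism had a smaller share called than all genes (14%). None of 40 DNA replication and cell division genes was called by edgeR or DESeq2. At an unadjusted p under 0.05, 9 of them were above and 20 below 0, and the list's median was -0.08. D cyclins and cell cycle inhibitors had 1 of 15 called, Cdkn2c, and 2 without tcESC replicate 2. Cytosolic ribosomal protein genes had 2 of 87 called higher (2.30%, against 7.13% of all genes), with a median log2 fold change of 0.28. In 78 of the 87 both tc;Sf1ESC libraries lay above both tcESC libraries and in 5 both lay below, where 78.0% of all genes tested had no overlap in either direction. Relative to the chromosome 1 of the 2 was called, Rpl39l, a copy expressed in the testis, which rose from 214 and 353 counts to 998 and 1125 (1.99, SE 0.0894). Oxidative phosphorylation subunits had 2 of 80 called higher (2.50%, median 0.14, and 1 called without tcESC replicate 2 or without tc;Sf1ESC replicate 1), 1 of them Cox7b2, another testis form, from 14 and 11 to 203 and 250. Glycolysis and hypoxia genes had 2 of 39 higher (5.13%) and 1 lower (2.56%), and cholesterol genes 1 of 29 lower (3.45%). Interferon-stimulated genes had 2 of 29 higher (6.90%, against 7.13% of all genes) and 6 lower (20.7%, against 6.87%), with 3 lower without tc;Sf1ESC replicate 1. Zinc finger genes named Zfp had 22 of 370 higher (5.95%) and 13 lower (3.51%). Cathepsins had 1 of 8 higher (12.5%), and crystallins 2 of 7 higher (28.6%) and 1 lower (14.3%, and 0 lower without tcESC replicate 2 or without tc;Sf1ESC replicate 1). Of 10 fibroblast, blood and endothelial markers tested, Vwf and Spi1 were called higher (20%, against 7.13% of all genes) and Thy1 lower (10%, against 6.87%).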

How the data were processed

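Poly-A RNA of 2 libraries for each of tcESCs and tc;Sf1ESCs had been sequenced on a HiSeq4000 as 50 bp paired ends by a strand-specific protocol. The files deposited by the authors hold raw read pair counts per Ensembl gene, 1 file a library. The submitters' processing notes name Trim Galore, STAR 2.4.0, Picard, HTSeq and DESeq2 and the build GRCm38. The strand setting of the counting was not given in the sources used here. Reads that align to more than 1 place are not in the counts, which lowers values of genes with near-identical copies.

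Gene symbols and positions came from the GENCODE M21 annotation of GRCm38, which named 45143 of 46078 IDs. The summary rows of each count file, such as that for unaligned reads, stayed out of totals. The 935 IDs without a name stayed in. Genes with a mean above 10 counts over the 4 libraries were fitted with edgeR 4.0.16 (R 4.3.3, TMM, quasi-likelihood test, Benjamini-Hochberg adjustment). A gene was called at an adjusted p under 0.05 and a change of at least 2-fold. A second fit took each chromosome's median log2 fold change as an offset where the chromosome had at least 20 genes tested. Both steps were tested on simulated data. Replicates differed by more than counting noise (chi-square per degree of freedom 4.04 and 1.44). Floors and intervals cover counting error only.

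The members and the 52 gene lists were chosen with earlier results of these data known. Named genes were the members of lists, at most 4 called members in each direction for families and lists described, the first 3 of a list, and the 12 largest increases and 12 largest decreases relative to the chromosome (2 and 2 on each shifted chromosome) among called protein-coding genes with at least 5 CPM in the higher line. A few genes named for position or as the 1 or 2 called in a list were added after their values were seen. Alternatives tried were other scalings, filters, fits with 6 and 8 libraries, DESeq2 1.42.0, a test against a 2-fold change, an adjusted p limit of 0.01, a replicate block and each library left out, where the lone library of a line is assumed to vary like the other line's 2. No column of per-sample values was left unused. Values of a few genes that the rules would name are not reported here.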

Additional observations from a re-analysis of the deposited data

How the results depend on the processing

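The count of 2205 genes called stayed within 1.5 times under the other scalings and filters, the fits with 6 and 8 libraries, the stricter adjusted p limit and DESeq2, from 1898 (DESeq2) to 2657 (every gene with at least 1 count). Testing against a 2-fold change, which asks that the change exceed the limit beyond its error, left 1134 genes called, 601 higher and 533 lower, and 1063 relative to the chromosome. Leaving out each library in turn gave 2127 to 2158 calls. These fits keep 1 library of that line and take the spread from the other line alone, so that the lone library is assumed to vary like the other line's 2, and they do not test the spread within its own line. The replicate numbers did not pair the libraries (correlation of the deviations of same-numbered libraries -0.0365), and the fit with the replicate block called 2195 genes, 2192 of them shared with the 2205, and 2087 relative to the chromosome. The medians of the shifted chromosomes kept their direction under every alternative run. Chromosome 3 was at 0.19 with library totals and at 0.19 to 0.21 with a library left out. Chromosome 6 was at -0.33 with library totals and between -0.34 and -0.32 with a library left out. Chromosome 8 was at 0.50 over genes with a mean above 100 counts and between 0.47 and 0.50 with a library left out. Chromosome 16 was at -0.46 with library totals, -0.49 over genes with a mean above 100 counts, -0.48 over protein-coding genes and between -0.47 and -0.46 with a library left out. Among the 196 named genes compared, the sign changed only for 3 values near 0 that were never called. Other genes named were not compared in this way. Sf1 was between -0.049 and 0.028 with a library left out (0.0018 without tc;Sf1ESC replicate 2) and at 0.0012 with every gene kept, Dnmt3b between -0.059 and 0.023 and Xist between -0.14 and 0.10. Of 1456 comparisons of list counts, 95 moved by over 1.5 times, 43 of them outside the test against a 2-fold change. Those 43 were at main counts of 0 to 6, in the lists of 2-cell, early PGC, neural, DNA methylation, interferon, stress, heat shock, cyclin, oxidative phosphorylation, semaphorin, collagen, Hox, glutathione transferase, cathepsin, Wnt ligand, Notch, crystallin and blood and fibroblast genes. A gene at 3 counts a library or fewer could not be told from 0 at this depth.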

Other observations

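The other 4 libraries of the series gave values for the same chromosomes and genes, over genes with a mean above 100 counts in all 8 libraries and relative to the median of all those genes. SCLCs, CFP-positive Sertoli cell-like cells made from the Sf1 line, had medians against tcESCs of 0.10 on chromosome 3, -0.32 on chromosome 6, 0.49 on chromosome 8 and -0.57 on chromosome 16. Against tc;Sf1ESCs the same cells were at -0.08, -0.0053, -0.04 and -0.07. Primordial germ cell-like cells (todPGCLCs), made from a different line with Prdm1-gfp that is labelled XY, were at 0.07, -0.34, -0.08 and 0.02 against tcESCs, and at -0.15, -0.04, -0.58 and 0.52 against tc;Sf1ESCs. On chromosomes 8 and 16 the todPGCLC values lay near those of tcESCs and on chromosome 6 near those of tc;Sf1ESCs. These comparisons share the ESC libraries and set different cell types and lines against each other, and none was tested.

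Kdm5c, at 124 and 136 counts in tcESCs, had 4868 and 5582 counts in SCLCs and 5679 and 5279 in todPGCLCs, so that the tcESC libraries held the lowest level of the 4 kinds of cells. Ddx3y, at 411 and 493 counts in tcESCs and 2089 and 2164 in tc;Sf1ESCs, had 1297 and 1246 in SCLCs and 25 and 25 in todPGCLCs. Uty had 132 and 163 counts in tcESCs, 863 and 873 in tc;Sf1ESCs, 545 and 454 in SCLCs and 25 and 23 in todPGCLCs. Zfy1 had 9 and 13 counts in todPGCLCs, Kdm5d had 7 and 3 and Eif2s3y had 63 and 51, so that 4 of these 5 Y-linked genes were under 1 CPM there and Eif2s3y was at 2.29 and 1.92 CPM. These low levels go against the label XY, and the reason was not tested. Peg10, at 396 and 478 counts in tc;Sf1ESCs, had 52873 and 95302 in SCLCs. H19, at 14 and 9 counts there, had 75795 and 129247 in SCLCs. Nr5a1 itself had 341 and 535 counts in SCLCs and 6 and 5 in todPGCLCs.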
